A study of Mus musculus with 48 samples.

Results

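Col1a1, Col1a2, Col3a1, Fmod, Lum, Dcn, Ogn, Slc22a6, Aldh1a2 and Igf2 are genes of the meningeal fibroblast, the cell that lays down the connective tissue around the brain, and they were followed here in RNA from the hippocampus of 48 mice. The 10 genes were taken by name: collagens, matrix proteoglycans, a transporter, an enzyme and a growth factor of these cells. All 10 were found among the 57126 gene identifiers counted, and all 10 were among the 16360 genes with enough counts to be tested. The animals were CD-1 mice, an outbred stock, sampled at 2 months of age. Their dams had taken lead together with manganese (Pb+Mn), lead alone (Pb, 100 ppm), manganese alone (Mn, 2 g/L) or neither metal (control) in the drinking water. The exposure began 2 weeks before mating and ended at weaning on postnatal day 21, so the offspring met the metals through the dam and were sampled after it had stopped. Each of the 8 groups (male and female, by Pb+Mn, Pb, Mn and control) held 6 animals, and the labels do not say which of them were littermates.

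The meninges are layers of fibroblasts that secrete fibrillar collagen and the small leucine-rich proteoglycans that coat its fibrils. Related fibroblasts follow the larger blood vessels into the tissue, and meningeal cells also make retinoic acid, growth factors and transporters that clear solutes from the cerebrospinal fluid. The hippocampus lies against the pia and the choroid plexus, so a dissected hippocampus can carry some of this covering with it. In a bulk library, fewer fibroblasts and less RNA per fibroblast cannot be told apart.

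Read counts assigned to genes came to between 6.27 and 27.64 M per library, with a median of 15.08 M (M, 1000000 reads). Levels are given as CPM, the counts per 1000000 reads, scaled for library composition. Xist, which is transcribed from the inactive X chromosome, was at odds with the label in 2 libraries: male control 4 had 24.4 CPM, the only one of 24 male libraries over 5 CPM, and female Pb 4 had 0.0684 CPM, the only one of 24 female libraries under it. The Y-linked Ddx3y went with the labelled sex in all 48. Results were therefore also computed without these 2 libraries. Markers of hippocampal pyramidal neurons were present throughout, with a summed level between 488 and 1620 CPM over 10 genes.

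None of the 10 genes passed an adjusted p of 0.05 in any comparison of exposed with control animals. In edgeR's quasi-likelihood test this held for Pb+Mn, Pb and Mn in each sex, and in all 6 comparisons 0% of the 16360 genes tested passed. At an unadjusted p under 0.05 the number of the 10 genes was 4 in male Pb, 1 in male Mn and 0 in the other comparisons with control. Of all genes tested, 4.23% were lower and 8.28% higher at that mark in male Pb, and 1.21% were lower in male Mn. In the other comparisons with control the share was between 1.64% and 2.93%. Limma voom, voom with library weights and DESeq2 likewise called 0 of the 10 genes. The libraries differed widely within groups, the 10 genes shared that spread, and the single-metal means lay below the control mean for most of them. Because the 10 genes shared it, counts among them are not counts of independent results.

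The fibrillar collagens varied several-fold between animals. Col1a1 (ENSMUSG00000001506, chromosome 11) and Col1a2 (ENSMUSG00000029661, chromosome 6) encode the chains that wind together into type I collagen, the main load-bearing fibre of the meninges. Col1a1 ranged from 3.58 CPM in male Pb 6 to 23.7 CPM in female control 6, with a median of 11.1 CPM. Col1a2 ranged from 8.0 CPM in female Mn 3 to 43.5 CPM in female control 5, with a median of 19.3 CPM. Col3a1 (ENSMUSG00000026043, chromosome 1) encodes type III collagen, which forms mixed fibrils with type I in soft tissue. It ranged from 0.749 CPM in female control 3 to 10.9 CPM in female control 4, a ratio of 14.6 between animals of the same group.

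Fibromodulin (Fmod, ENSMUSG00000041559, chromosome 1), lumican (Lum, ENSMUSG00000036446, chromosome 10), decorin (Dcn, ENSMUSG00000019929, chromosome 10) and osteoglycin (Ogn, ENSMUSG00000021390, chromosome 13) are small leucine-rich proteoglycans, a family whose members bind collagen fibrils and bear on their diameter and spacing. Dcn had the narrowest range of the 10 genes, from 9.57 CPM in male control 6 to 36.4 CPM in male Mn 6, a ratio of 3.8. Lum spanned a ratio of 4.78 between 1.69 and 8.06 CPM. Fmod spanned a ratio of 8.83 between 3.48 and 30.8 CPM, and Ogn a ratio of 10.3 between 1.51 and 15.6 CPM. Male Mn 3 was the lowest library for both Fmod and Ogn.

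Slc22a6 (ENSMUSG00000024650, chromosome 19) encodes the organic anion transporter OAT1, known best from the kidney tubule, and ranged from 1.05 to 7.81 CPM. Aldh1a2 (ENSMUSG00000013584, chromosome 9) encodes a retinaldehyde dehydrogenase that makes retinoic acid, and ranged from 1.31 to 13.2 CPM. Both were highest in male control 3. Igf2 (ENSMUSG00000048583, chromosome 7) encodes insulin-like growth factor 2, which is imprinted in most mouse tissues but is made from both parental copies in the leptomeninges and the choroid plexus. It varied most, from 0.591 CPM in male Mn 3 to 12.3 CPM in female Pb+Mn 1, a ratio of 20.7. The antisense gene Igf2os overlaps Igf2 and had 167 counts over all libraries beside the 2520 of Igf2. Whether the counting used strand is not given in the sources at hand. How reads in the overlap were counted is therefore not known, and the Igf2 values are uncertain to that extent. Counts per library of the 10 genes lay between 4 (Igf2) and 865 (Dcn), so the lowest Igf2 values rest on few reads.

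Levels of different genes were compared per kilobase of exon. The length was the union of all annotated exons of a gene, and the order depends on that choice. On this scale Fmod was highest at 4.09 ± 1.87 CPM per kb (mean ± SD over 48 libraries). Dcn followed at 3.71 ± 1.17, Aldh1a2 at 2.76 ± 1.2, Ogn at 2.49 ± 1.16 and Lum at 2.01 ± 0.656 CPM per kb. The type I collagen chains were close to each other, with 1.73 ± 0.664 CPM per kb for Col1a1 and 1.63 ± 0.677 CPM per kb for Col1a2. Col1a1 was the higher in 30 of the 48 libraries. Before division by length Col1a2 averaged 20.2 CPM and Col1a1 11.3 CPM, over 12426 and 6563 bases. Slc22a6 had 0.975 ± 0.387, Igf2 0.56 ± 0.458 and Col3a1 0.546 ± 0.254 CPM per kb. The means of neighbours in this order differed by less than the larger of their SDs. The step most often kept within a library was that from Col1a2 to Slc22a6, with Col1a2 higher in 46 of the 48 libraries. Igf2 and Col3a1 had no fixed order, and Igf2 was the higher in 19.

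**Figure D1:**
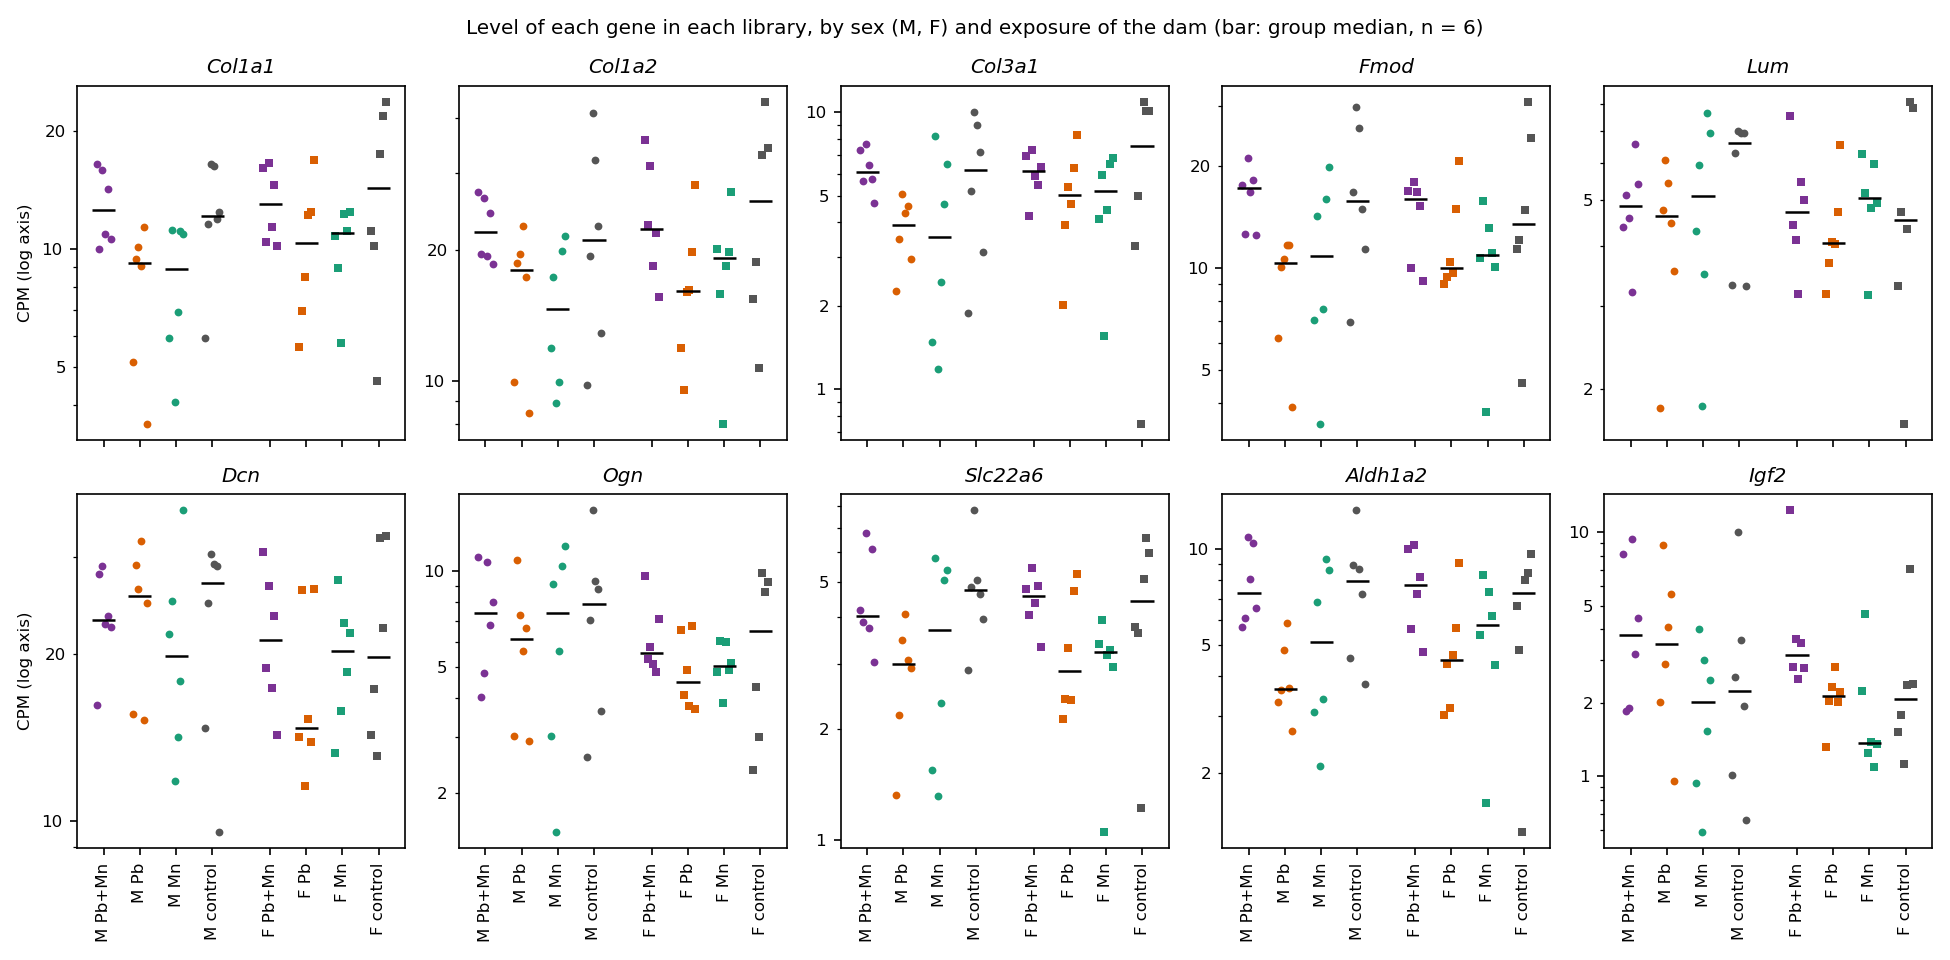
Level of each of the 10 genes in each library in CPM on a log axis, with males (M, circles) left of females (F, squares) and the groups of each sex in the order Pb+Mn, Pb, Mn and control. Each point is 1 animal and each bar a group median (n = 6). Control groups spread widely, from 0.749 to 10.9 CPM for Col3a1 in female controls, and the male Pb+Mn points lie close together for most genes.

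The within-group SD of log2 CPM lay between 0.5 (Dcn) and 0.93 (Igf2), against a median of 0.28 over all genes tested. The fitted dispersion of the 10 genes, the variance between animals beyond counting noise, exceeded that of 83.1% (Dcn) to 97.2% (Igf2) of the genes tested. Differences between the 8 groups accounted for 5.0% (Lum) to 25.1% (Col1a1) of the variance of each gene between libraries, where 14.9% would be the mean share for 8 groups of 6 if no group differed.

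Male Pb animals had more of the 10 genes at an unadjusted p under 0.05 against control than any other exposed group, and all of these were lower. Among the exposed groups male Pb also had the largest share of all genes tested at that mark, 4.23% lower and 8.28% higher. Aldh1a2 had a lowest, median and highest level of 2.71, 3.66 and 5.88 CPM in male Pb animals, against 3.8, 7.96 and 13.2 CPM in male controls. Every male Pb library lay below the control mean, while the ranges overlapped. The log2 fold change of Aldh1a2 was -1.04 ± 0.34 (SE, edgeR adjusted p = 0.34). Fmod had 3.91, 10.3 and 11.7 CPM in male Pb animals, against 6.94, 15.8 and 29.7 CPM in male controls, again with all 6 Pb libraries below the control mean. Its log2 fold change was -1.01 ± 0.35 (edgeR adjusted p = 0.34). Slc22a6 had 1.32, 2.99 and 4.09 CPM in male Pb animals, against 2.89, 4.74 and 7.81 CPM in male controls, a log2 fold change of -0.84 ± 0.31. Col1a1 averaged 8.12 ± 3.06 CPM in male Pb animals and 12.4 ± 3.86 CPM in male controls (SD, n = 6 each), a log2 fold change of -0.64 ± 0.29.

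These were the 4 of the 10 genes that were lower in male Pb at an unadjusted p under 0.05, a mark that 4.23% of the genes tested reached in that direction. The median log2 fold change of the 10 genes was -0.59, beside 0.0 over all genes tested. Dcn and Igf2 were the genes not below control, with log2 fold changes of 0.02 ± 0.26 and 0.18 ± 0.49. The count moved with single animals: it was 2 without male control 3, which had the highest level of its group for all 10 genes, 6 without male control 6 and 7 without male control 1. Without the libraries at odds with their labelled sex it was 3. The share of all genes at this mark is not given for such fits, here or below, so these counts have no background beside them.

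Other values differed between these groups beside the fibroblast genes, and their part in the result was not tested. The slope of log2 level on transcript length, a sign of RNA quality, averaged -0.085 ± 0.129 in male Pb libraries and 0.002 ± 0.062 in male controls (SD, n = 6 each). It was lowest at -0.322 in male Pb 6, which also had the lowest Col1a1, Col1a2, Fmod, Ogn, Igf2 and Aldh1a2 of its group. With this slope as a covariate the count of 4 became 3 and the median -0.46. Blood markers had a summed level of 235 to 722 CPM in male Pb animals and 136 to 244 CPM in male controls, with 5 of 5 tested genes positive. Dentate granule cell markers had a summed level of 428 to 672 CPM in male Pb animals and 436 to 908 CPM in male controls, with 9 of 10 negative. Choroid plexus markers were 17 of 18 positive with a list median of 0.54.

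In male Mn animals all 10 genes had negative log2 fold changes, from -0.81 (Igf2) to -0.14 (Dcn), with a median of -0.56. Col1a2 had a lowest, median and highest level of 8.94, 14.6 and 21.5 CPM in male Mn animals, against 9.83, 21.0 and 41.0 CPM in male controls. All 6 Mn libraries lay below the control mean, and the log2 fold change was -0.64 ± 0.31 (edgeR adjusted p = 1.0). It was the 1 gene of the 10 with an unadjusted p under 0.05, beside 1.21% of the genes tested in that direction. That count was 4 in voom with library weights and 0 without any one of male control 3, 4 or 5 or male Mn 1, 3 or 4. It was 2 without male control 6, 4 without male control 1, male Mn 2 or male Mn 5, and 5 without male Mn 6. Without male control 3 the Igf2 fold change was -0.02 and that of Ogn was 0.08. Beside these genes 17 of 18 choroid plexus markers were negative with a list median of -0.61, as were 10 of 10 dentate granule cell markers with a list median of -0.23, and their part was not tested. In male Pb+Mn animals the 10 log2 fold changes against control lay between -0.25 (Lum) and 0.41 (Igf2), with a median of -0.04. Of the 10 genes 0 reached an unadjusted p under 0.05, beside 2.93% of the genes tested; 1 was higher without male control 3.

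In females, too, the Pb+Mn group lay near control and the single-metal groups below it. The median log2 fold change of the 10 genes was -0.01 in female Pb+Mn animals, -0.39 in female Pb animals and -0.44 in female Mn animals, each against female controls. Of the 10 genes 0 reached an unadjusted p under 0.05 in any of these, beside 1.64%, 2.18% and 2.62% of the genes tested for Pb+Mn, Pb and Mn. Here too single animals moved the count: without female control 3 it was 2 lower in Pb and 4 lower in Mn, without female Pb 6 it was 2 lower in Pb, and without female control 5 it was 1 higher in Pb+Mn. Voom with library weights gave 3 lower in Pb and 4 lower in Mn. The shares above belong to the main edgeR fit of all 48 libraries, and those under other settings are not given here. Border macrophage markers had list medians of -0.09 in Pb+Mn, -0.6 in Pb and -0.53 in Mn. In female Mn all 9 oligodendrocyte markers were negative with a list median of -0.37, and 5 of them had an unadjusted p under 0.05. The part of these markers was not tested. Col1a2 averaged 16.9 ± 6.53 CPM in female Pb animals and 25.9 ± 12.8 CPM in female controls (SD, n = 6 each), a log2 fold change of -0.62 ± 0.31 (edgeR adjusted p = 1.0). Igf2 averaged 4.58 ± 3.79 CPM in female Pb+Mn animals and 2.7 ± 2.18 CPM in female controls (SD, n = 6 each), a log2 fold change of 0.87 ± 0.53, and 17 of 18 choroid plexus markers were positive beside it with a list median of 0.98. The 3 female comparisons share their 6 controls, as the male comparisons share theirs.

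Differences between the sexes were tested directly for each exposure. Of the 10 genes 0 passed an adjusted p or an unadjusted p of 0.05, beside 0.789%, 2.07% and 0.954% of the genes tested at the unadjusted mark for Pb+Mn, Pb and Mn. The widest was Aldh1a2 under Pb, where the male fold change minus the female one was -0.64 ± 0.49 on the log2 scale. Between female and male controls, where 0.0428% of the genes tested passed at an adjusted p under 0.05, 0 of the 10 genes did. At the unadjusted mark, too, 0 of the 10 stood beside 1.31% of the genes tested, and their median log2 fold change was -0.17.

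**Figure D2:**
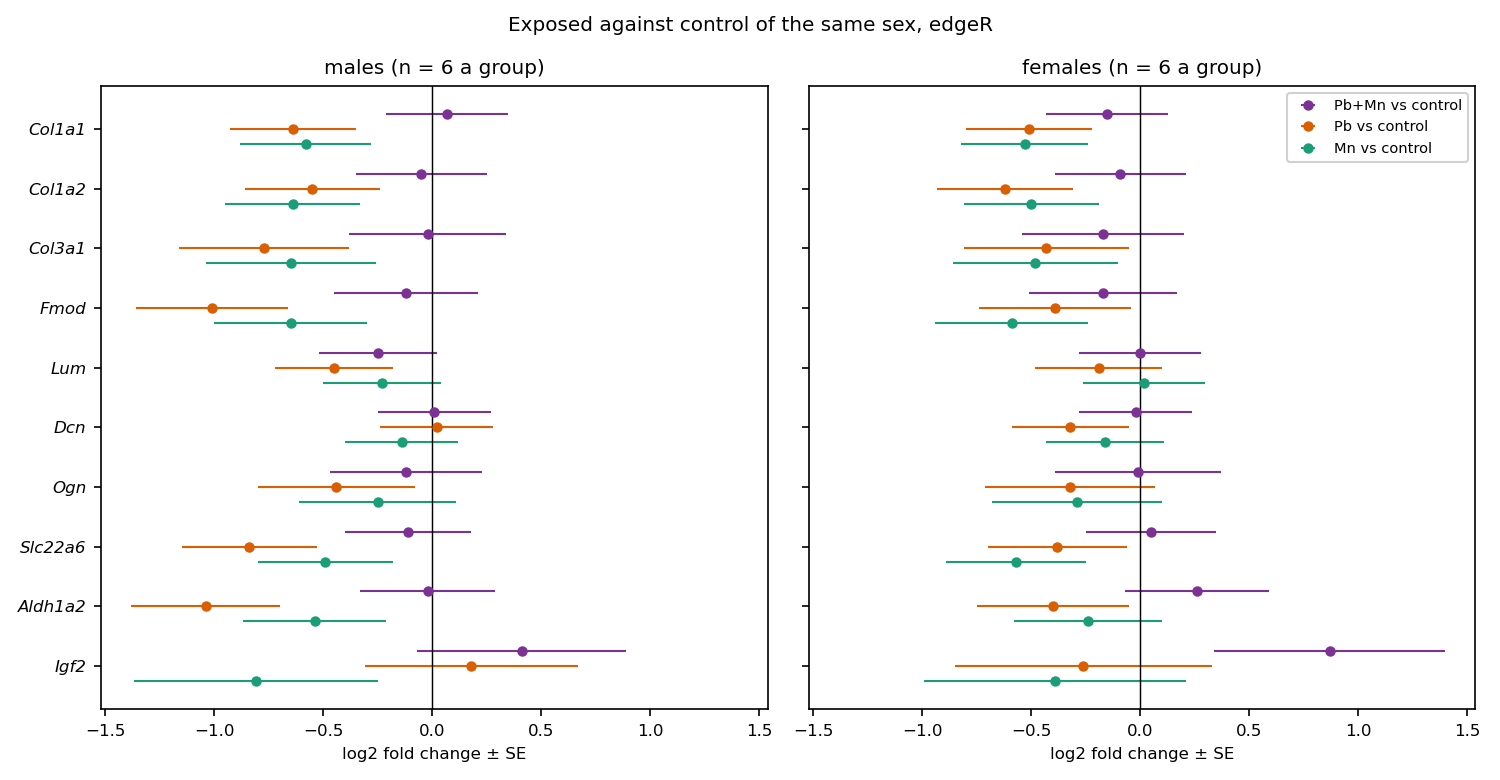
Log2 fold change (point) and SE (bar) of each gene in Pb+Mn, Pb and Mn animals against controls of the same sex, males left and females right. Pb and Mn points lie left of 0 for most genes in both sexes, down to -1.04 for Aldh1a2 in male Pb, while the Pb+Mn points of every gene but Igf2 lie no farther than 0.26 from 0.

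Set directly against Pb alone, males given both metals had positive log2 fold changes for 9 of the 10 genes, with Dcn at -0.01. Aldh1a2 had a lowest, median and highest level of 5.71, 7.29 and 10.9 CPM in male Pb+Mn animals, against 2.71, 3.66 and 5.88 CPM in male Pb animals. Its log2 fold change was 1.02 ± 0.34 (edgeR adjusted p = 0.094), with 6 of 6 Pb+Mn libraries above the Pb mean, and this was the smallest adjusted p of the 10 genes in any of the 16 comparisons. Over the other settings of this comparison it lay between 0.065 and 0.69. Fmod had 12.5, 17.2 and 21.1 CPM in male Pb+Mn animals, against 3.91, 10.3 and 11.7 CPM in male Pb animals, a log2 fold change of 0.89 ± 0.35 (edgeR adjusted p = 0.13). It was the 1 gene of the 10 whose ranges did not overlap, as did 0.501% of the genes tested with the Pb+Mn group above. Slc22a6 had a log2 fold change of 0.73 ± 0.31 (edgeR adjusted p = 0.15) and Col1a1 of 0.7 ± 0.29 (edgeR adjusted p = 0.14).

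These 4 of the 10 genes were higher in male Pb+Mn than in male Pb at an unadjusted p under 0.05, where 8.81% of the genes tested were. The median log2 fold change of the 10 was 0.6, beside -0.01 over all genes tested. Without male Pb 1 or without male Pb 6 the count was 2, and with the transcript length slope as a covariate it was 3 and the median 0.4. This slope averaged 0.035 ± 0.035 in male Pb+Mn libraries and -0.085 ± 0.129 in male Pb libraries (SD, n = 6 each). In this comparison edgeR called 0% of all genes at an adjusted p under 0.05, while DESeq2 called 326 genes and voom with library weights 471, none of the 10 among them. Dentate granule cell markers moved with the fibroblast genes here, with a summed level of 540 to 789 CPM in male Pb+Mn animals and 428 to 672 CPM in male Pb animals, 9 of 10 positive and a list median of 0.46, and their part was not tested.

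Against male Mn, Pb+Mn males had a median log2 fold change of 0.53 over the 10 genes. Col1a1, at 0.65 ± 0.29, and Igf2, at 1.23 ± 0.54, were the 2 genes with an unadjusted p under 0.05, beside 2.02% of the genes tested in that direction. The count was 5 in voom and 4 with library weights. It was 0 without male Mn 1, male Mn 3 or male Pb+Mn 1, and 1 without male Mn 4 or male Pb+Mn 3, 4 or 5. It was 4 without male Mn 5 or male Mn 6. Choroid plexus markers, 17 of 18 positive with a list median of 1.05, and blood markers, 5 of 5 positive, moved with Igf2 in this comparison.

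In females the corresponding medians were 0.34 for Pb+Mn against Pb and 0.39 for Pb+Mn against Mn. Igf2 was the 1 gene of the 10 with an unadjusted p under 0.05 in each, beside 2.07% and 1.71% of the genes tested in that direction. It had a lowest, median and highest level of 2.5, 3.15 and 12.3 CPM in female Pb+Mn animals, against 1.31, 2.12 and 2.81 CPM in female Pb animals and 1.09, 1.36 and 4.61 CPM in female Mn animals. All 6 Pb+Mn animals lay above the mean of either single-metal group. The highest value came from female Pb+Mn 1, and without it the log2 fold changes of 1.13 ± 0.53 against Pb and 1.26 ± 0.54 against Mn were 0.55 and 0.68, and the count in each comparison was 0. Against Pb the count was also 0 without female Pb 1, 2, 3 or 5, and 3 without female Pb 6. Against Mn it was also 0 without female Mn 3, 4 or 6. With voom the counts were 0 against Pb and 2 against Mn, and with library weights 2 and 5. Against Pb the count was 0 with the transcript length slope as a covariate. The choroid plexus markers moved with Igf2 here as well, with 17 of 18 positive and list medians of 0.89 and 1.03 in these comparisons, and thalamus and habenula markers had list medians of 0.74 and 0.56. Their part was not tested.

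The departure of the Pb+Mn groups from the sum of the single-metal differences was tested as a Pb by Mn interaction. In males all 10 estimates were positive, from 0.13 (Dcn) to 1.55 (Aldh1a2), with a median of 1.19 on the log2 scale, beside -0.01 over all genes tested. The 10 genes varied together between libraries, with a mean r of 0.7 over their pairs, so their signs and counts are not independent results. For 6 genes (Col1a1, Col1a2, Col3a1, Fmod, Slc22a6 and Aldh1a2) the unadjusted p was under 0.05, as it was with a positive sign for 5.56% of the genes tested. Fmod had 1.54 ± 0.49 and Aldh1a2 1.55 ± 0.48 (SE), each with an edgeR adjusted p of 0.35, and 0% of the genes tested passed. The count of 6 was the same with each of the 24 male libraries left out in turn, and the median then lay between 0.94 and 1.36. Dentate granule cell markers moved with it, with 9 of 10 positive, 6 of them at an unadjusted p under 0.05 and a list median of 0.72, and thalamus and habenula markers were 14 of 14 positive with a list median of 0.47. Their part was not tested.

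In females all 10 estimates were again positive, with a median of 0.85. Col1a1 (0.89 ± 0.41), Col1a2 (1.03 ± 0.44) and Slc22a6 (1.01 ± 0.45) were the 3 genes with an unadjusted p under 0.05, beside 1.89% of the genes tested in that direction. There the count depended on single animals. It was 0 without female control 5 or female Mn 3, and 1 without female control 4, female control 6, female Pb 1 or female Pb+Mn 1. It was 5 without female control 3, female Pb 6 or female Mn 2. Markers of other cells and tissues moved with this estimate, and their part was not tested. Thalamus and habenula markers were 14 of 14 positive with a list median of 1.32, choroid plexus markers 16 of 18 with 1.04, and oligodendrocyte markers 9 of 9 with 0.35. Border macrophage markers were 8 of 9 positive with a list median of 0.69, and 3 of them had an unadjusted p under 0.05. Each interaction uses the same animals as the comparisons above, so it is no separate evidence of them.

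Within groups the 10 genes varied together. With group means removed, the mean Pearson r over the 45 pairs of genes was 0.7 across 48 libraries, from 0.4 (Dcn and Igf2) to 0.9 (Fmod with Col1a1 and with Aldh1a2). All 45 pairs passed an adjusted p of 0.05 in a two-sided test that permuted libraries within groups, with 100000 permutations and adjustment over the 45 pairs. How many pairs of other genes would pass is not given here. Of 14388 other genes with enough signal to compare, 3.45% had an r over 0.5 with the mean level of the 10. For Dcn and Igf2 the adjusted permutation p was 0.013, and for the closest pairs the unadjusted permutation p was 1e-05, the smallest that these permutations can give. The mean of Spearman's rho over pairs was 0.69. Leaving out the 2 libraries farthest from the median, the lowest r of any pair was 0.33. In the 24 males the mean r was 0.72 and in the 24 females 0.69. The log2 total count of a library had an r of -0.01 with the mean level of the 10 genes. The share of counts taken by the 100 most abundant genes, another sign of library make-up, had an r of -0.44 with it (rho = -0.49), with -0.33 in males and -0.54 in females, and its part was not tested.

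The collagens were the tightest set by role, with a mean r of 0.86 over 3 pairs and 0.89 for the partners Col1a1 and Col1a2. The 4 proteoglycans were looser, with a mean r of 0.65 over 6 pairs, from 0.51 between Dcn and Ogn to 0.78 between Fmod and Lum. The transporter Slc22a6 and the enzyme Aldh1a2 had an r of 0.89 with each other, and of 0.87 and 0.9 with Fmod. Grouped after the values were seen, 7 genes (the collagens, Fmod, Lum, Slc22a6 and Aldh1a2) had a mean r of 0.83 among themselves, from 0.76 to 0.9. Against those 7, Ogn had a mean r of 0.66, Dcn of 0.59 and Igf2 of 0.54. Igf2 was closest to Ogn, with an r of 0.75.

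**Figure D3:**
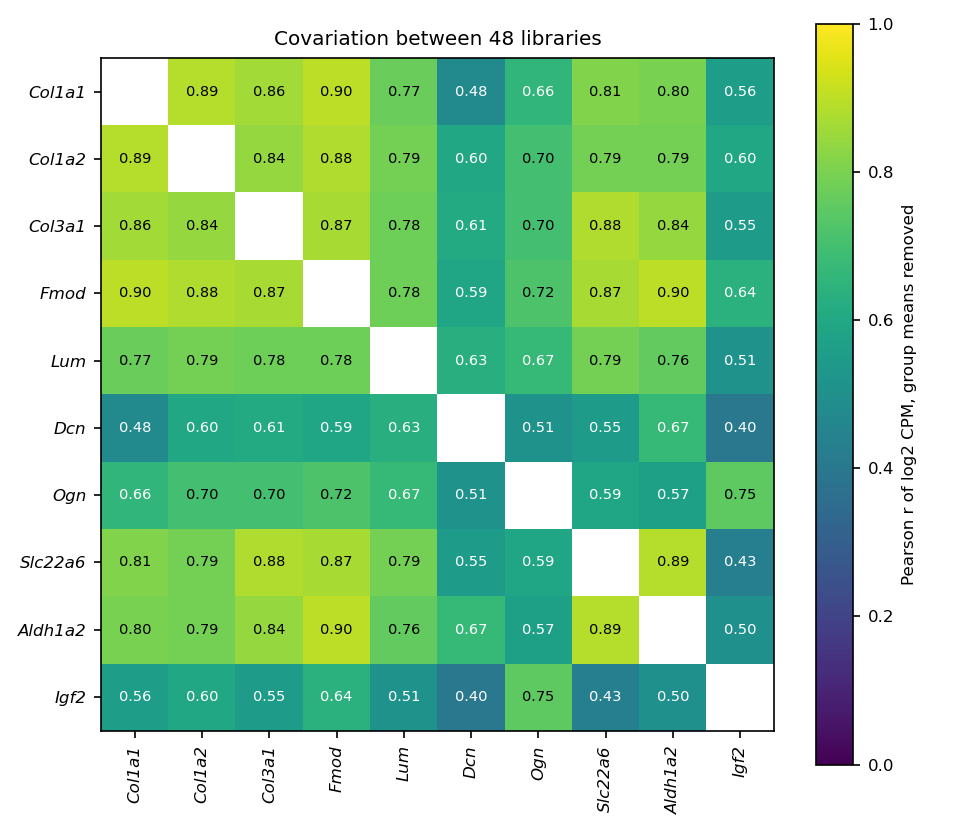
Pearson r of log2 CPM between every pair of the 10 genes across 48 libraries, with group means removed, where the colour and the printed number give r. The collagens, Fmod, Lum, Slc22a6 and Aldh1a2 lie at 0.76 or above with each other, and Dcn and Igf2 give the lowest value, 0.4.

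The shared level of each animal can be given as the mean deviation of the 10 genes from their own means. It reached 1.1 log2 units in male control 3 and -1.45 in male Mn 3, a range of 2.55, and 15.6% of its variance lay between groups, close to the 14.9% that no difference would give on average. All 10 genes were above their means in the 3 highest libraries, male control 3, female control 5 and female Pb+Mn 1, and also in male control 4, male Pb+Mn 5 and male control 2. None of the 10 was in male control 1, male Pb 1, female Mn 3, female control 3 or male Mn 3. Control animals thus stood at both ends. The SD between animals was 0.19 in male Pb+Mn, 0.5 in male Pb, 0.78 in male Mn and 0.71 in male controls. In females it was 0.33 in Pb+Mn, 0.37 in Pb, 0.47 in Mn and 0.84 in controls. The mean pairwise r was 0.18 within male Pb+Mn and 0.86 within male controls, a difference that was not tested.

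**Figure D4:**
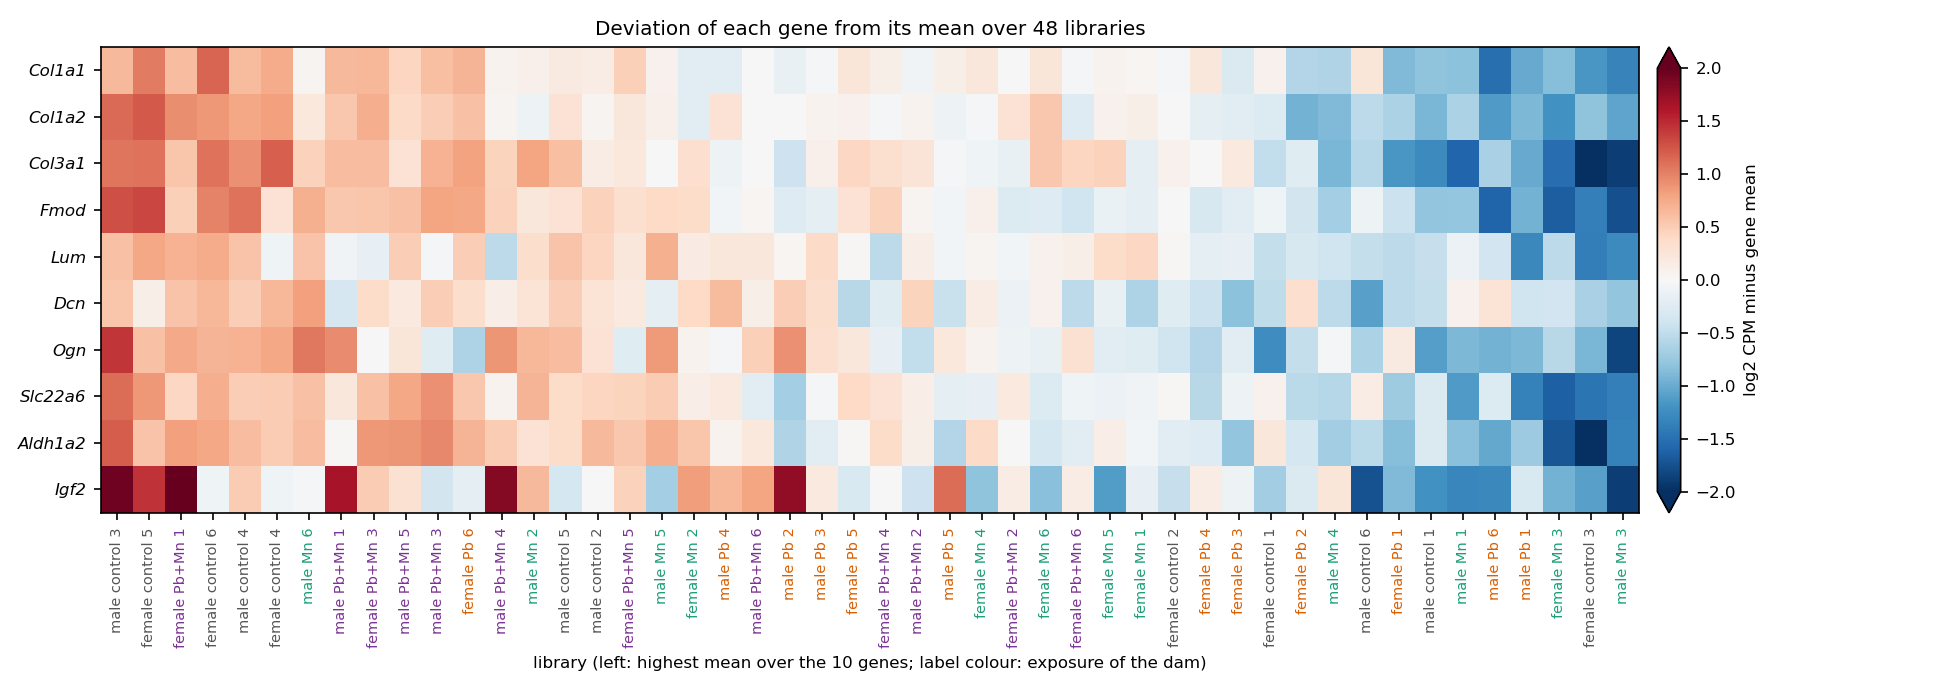
Log2 CPM of each gene minus its mean over 48 libraries, with libraries ordered from the highest (left) to the lowest mean over the 10 genes and their names coloured by exposure. Columns toward either end are mostly of 1 colour from top to bottom, while those in the middle are mixed, and control animals sit at both ends (male control 3 at 1.1 and female control 3 at -1.33 on average).

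Because these genes moved together, the promoters of those closest to each other are shown, as far as the RefSeq promoter table held them. Each line is the 250 bases upstream of the annotated start, 5′ to 3′ on the strand of the gene (+ for all 5), from RefSeq on build GRCm38.p6. Capitals mark matches to CCAAT (the CCAAT box), TATAAA (the TATA box) and GGGCGG (the GC box), searched on both strands.
Col1a2, chr6:4505368-4505617: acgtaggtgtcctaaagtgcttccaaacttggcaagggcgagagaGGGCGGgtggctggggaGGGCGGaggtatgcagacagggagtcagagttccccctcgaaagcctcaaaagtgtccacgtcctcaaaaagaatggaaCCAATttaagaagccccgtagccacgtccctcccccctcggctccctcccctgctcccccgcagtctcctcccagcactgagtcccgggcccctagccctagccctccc
Col3a1, chr1:45311288-45311537: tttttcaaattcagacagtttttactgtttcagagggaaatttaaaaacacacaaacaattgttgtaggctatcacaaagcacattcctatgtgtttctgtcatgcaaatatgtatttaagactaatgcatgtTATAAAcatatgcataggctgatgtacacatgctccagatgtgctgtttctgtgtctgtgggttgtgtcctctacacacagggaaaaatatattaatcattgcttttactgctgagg
Fmod, chr1:134037004-134037253: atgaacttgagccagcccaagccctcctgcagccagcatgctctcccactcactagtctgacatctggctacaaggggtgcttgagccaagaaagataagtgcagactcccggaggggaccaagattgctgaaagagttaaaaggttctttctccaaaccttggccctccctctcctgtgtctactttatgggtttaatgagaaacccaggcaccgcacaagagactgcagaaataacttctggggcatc
Slc22a6, chr19:8617746-8617995: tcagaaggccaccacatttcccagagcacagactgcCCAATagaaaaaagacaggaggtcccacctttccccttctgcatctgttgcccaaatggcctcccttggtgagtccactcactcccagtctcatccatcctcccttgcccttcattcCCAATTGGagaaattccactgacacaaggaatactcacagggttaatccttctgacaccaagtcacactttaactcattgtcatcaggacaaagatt
Aldh1a2, chr9:71215539-71215788: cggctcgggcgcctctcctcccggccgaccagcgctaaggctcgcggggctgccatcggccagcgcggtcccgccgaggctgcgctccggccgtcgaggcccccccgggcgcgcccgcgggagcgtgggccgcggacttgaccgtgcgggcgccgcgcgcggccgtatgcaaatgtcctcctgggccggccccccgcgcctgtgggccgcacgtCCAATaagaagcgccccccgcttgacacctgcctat

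These 5 windows had few of the searched motifs in common. A CCAAT match stood in those of Col1a2, Slc22a6 and Aldh1a2, beginning 109 bases before the start in Col1a2 and 36 bases before it in Aldh1a2. Slc22a6 held matches at 214 and 97 bases, and a match on the opposite strand at 94 bases that overlaps the second. Of 32851 RefSeq promoters of the same length, 33.8% held a CCAAT match. GGGCGG stood in the Col1a2 window alone, at 205 and 188 bases before the start, and 32.7% of promoters held one. TATAAA stood in the Col3a1 window alone, at 117 bases before the start, and 12.4% of promoters held one. None of these motifs stood in the Fmod window. Whether the motifs bear on the shared variation was not tested.

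Other genes of the meningeal fibroblast varied along with the 10. Of 34 further meningeal and perivascular fibroblast genes tested, 27 had an r over 0.5 with the shared level, as did 3.45% of 14388 genes with enough signal to compare. Their mean level gave an r of 0.95 (rho = 0.95). Gjb2, which encodes the gap junction protein connexin 26, had the highest r of that list (0.86), and Slc6a13, a GABA and taurine transporter of the leptomeninges, had 0.83. Ranked over all genes, the genes closest to the shared level over 48 libraries included Emilin1 (Pearson r = 0.88), Gjb2, Aebp1 (0.86), Mrc2 (0.85), Fbln5 (0.84), Slc6a13, Colec12 (0.82), Bmp7 (0.81) and Mrc1 (0.81). Emilin1 and Fbln5 encode proteins of elastic fibres, Aebp1 a collagen-binding matrix protein, and Mrc2 a receptor that takes up collagen fragments. Mrc1 is a border macrophage marker and counts among those given below. Emilin1 ranged from 0.92 to 4.15 CPM, and Aebp1 from 4.01 to 40.6 CPM.

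Markers of neighbouring cells and tissues moved with the shared level too, and their part in it was not tested. The macrophages that live at the borders of the brain gave an r of 0.77 over 9 tested markers, of which 6 were over 0.5. Their summed level was 20.7 to 34.7 CPM in male Pb+Mn, 14.6 to 30.2 CPM in male Pb, 12.1 to 32.1 CPM in male Mn and 16.2 to 32.5 CPM in male controls. In females it was 20.1 to 34.1 CPM in Pb+Mn, 14.6 to 31.0 CPM in Pb, 9.73 to 29.8 CPM in Mn and 16.0 to 41.1 CPM in controls. Markers of the thalamus and habenula, which lie beneath the hippocampus, gave an r of 0.73 over 14 genes, of which 10 were over 0.5. Their summed level was 362 to 568 CPM in male Pb+Mn, 189 to 1150 CPM in male Pb, 263 to 917 CPM in male Mn and 248 to 1490 CPM in male controls. In females it was 244 to 826 CPM in Pb+Mn, 241 to 726 CPM in Pb, 253 to 679 CPM in Mn and 278 to 1360 CPM in controls. All 14 had negative log2 fold changes in male Pb (median -0.52) and in male Mn (median -0.73), and also in male Pb+Mn (median -0.8), where the 10 fibroblast genes had a median of -0.04. In females the list medians were -0.19 for Pb+Mn, -0.74 for Pb and -0.72 for Mn.

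Lists of cells inside the hippocampus went less with the fibroblast genes, or against them. Pyramidal neuron markers had an r of -0.44 with the shared level, blood markers -0.26, microglia markers -0.25, astrocyte markers -0.09, dentate granule cell markers -0.05 and oligodendrocyte markers 0.1. Cells of vessels and ventricles lay between, with an r of 0.45 for smooth muscle and pericyte markers, 0.44 for endothelial markers and 0.45 for ependymal markers. In none of the 8 groups was a macrophage, thalamus, choroid plexus or blood marker at 0 in all 6 libraries.

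Igf2 had a higher r with choroid plexus markers than with any of the other 9 genes. With the mean of 18 such markers its r was 0.85 (rho = 0.84, and r = 0.83 without the 2 farthest libraries), with 0.91 in males and 0.72 in females. The other 9 genes had an r between 0.21 (Slc22a6) and 0.55 (Ogn) with the same markers. Summed choroid plexus markers ranged from 85.7 to 4300 CPM in male Pb+Mn, 213 to 7060 CPM in male Pb, 99.2 to 2080 CPM in male Mn and 67.9 to 4810 CPM in male controls. In females they ranged from 105 to 4760 CPM in Pb+Mn, 74.0 to 2040 CPM in Pb, 72.8 to 1980 CPM in Mn and 158 to 2380 CPM in controls. The same animal had the highest Igf2 and the highest choroid plexus sum in 6 of the 8 groups. In male Mn, Igf2 was highest in animal 2 and the choroid plexus sum in animal 4, and in female Pb, Igf2 was highest in animal 4 and the sum in animal 2. With the choroid plexus mean regressed out of both genes, Igf2 had a mean r of 0.52 with the 7 genes named above, against 0.54 as measured. The 5 genes closest to Igf2, chosen after the values were seen, were Slc13a4, Pcolce, Slc2a12, Col8a1 and Lbp, with an r between 0.88 and 0.91. Pcolce encodes an enhancer of procollagen processing and Slc13a4 a sulfate transporter.

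**Figure D5:**
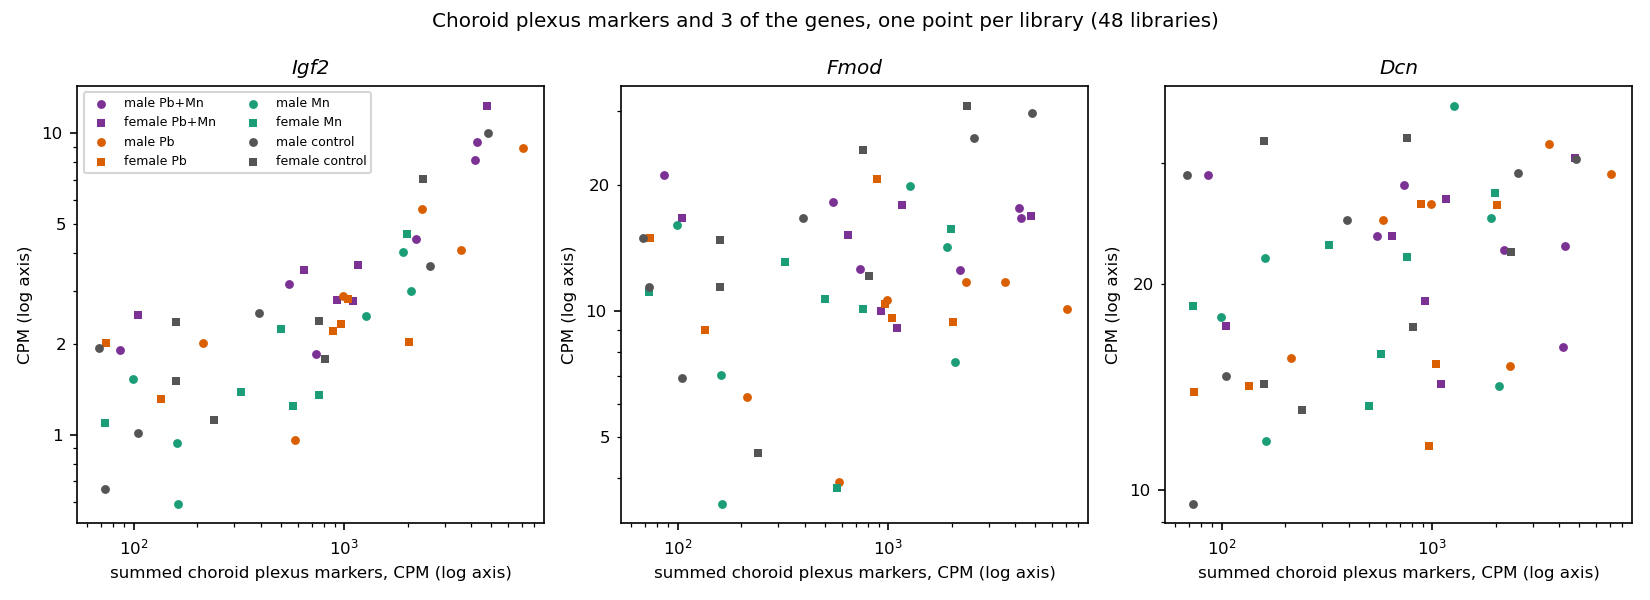
CPM of Igf2, Fmod and Dcn (vertical, log axis) against the summed CPM of 18 choroid plexus markers (horizontal, log axis), 1 point per library, coloured by exposure, circles for males and squares for females. Igf2 climbs with the choroid plexus markers (r = 0.85 with their mean log2 level and group means removed), while Fmod (0.4) and Dcn (0.34) scatter.

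Dcn had an r of 0.79 with border macrophage markers, 0.69 with thalamus and habenula markers and -0.71 with pyramidal neuron markers, against 0.64 with the mean of the other 9 genes. Its 5 closest genes, likewise chosen after the values were seen, were Tnnt1, Coch, Zdhhc22, Opn3 and Vipr2, with an r between 0.8 and 0.83. Emilin1, the closest gene to the shared level, had an r of 0.49 with Dcn.

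In the lists of the same pathways a smaller part varied with the 10 than in the list of further fibroblast genes. Of the 14388 genes compared, 3.45% had an r over 0.5 with the shared level. Of 27 other collagen genes, 11 had an r over 0.5 with the shared level, led by Col5a2 (0.76), a chain of the type V collagen found within type I fibrils, and Col12a1 (0.73), which encodes a collagen of the fibril surface. Of 8 other small leucine-rich proteoglycans tested, Ecm2 alone was over 0.5 (0.57). Of 28 genes that modify and process collagen, 4 were over 0.5, with Pcolce at 0.74 and Timp3, a metalloproteinase inhibitor, at 0.64. Of 18 TGF-beta ligand, receptor and target genes, 3 were over 0.5, led by the receptor Tgfbr2 (0.77). Of 16 retinoid genes, 2 were over 0.5, led by Crabp2 (0.72), which carries retinoic acid to its receptors. Of 11 genes of the insulin-like growth factor system, Igfbp2 alone was over 0.5 (0.6). Crabp2 and Igfbp2 are also in the list of further fibroblast genes, so they are counted in both.

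In the comparisons with control 0 genes of these lists passed an adjusted p of 0.05 in edgeR. Of the 34 further fibroblast genes, 25 had negative log2 fold changes in male Pb, with a median of -0.16, and 8 were lower and 0 higher at an unadjusted p under 0.05, beside 4.23% lower and 8.28% higher of the genes tested. Among them Cemip, which takes part in hyaluronan breakdown, averaged 18.5 ± 2.77 CPM in male Pb animals and 28.1 ± 6.88 CPM in male controls (SD, n = 6 each), a log2 fold change of -0.59 ± 0.17 (edgeR adjusted p = 0.34). Lama1, a laminin chain of basement membranes, averaged 2.54 ± 0.602 CPM in male Pb animals and 4.42 ± 1.6 CPM in male controls, a log2 fold change of -0.84 ± 0.29 (edgeR adjusted p = 0.34). With the shared level Cemip had an r of only 0.19 and Lama1 of 0.67, where the list median was 0.61. In male Mn, 33 of the 34 were negative (median -0.25) and 1 was lower at an unadjusted p under 0.05, beside 1.21% of the genes tested. In male Pb+Mn, 13 were negative and 21 positive (median 0.02). In females the list medians were 0.05 for Pb+Mn, -0.24 for Pb and -0.17 for Mn.

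The 27 other collagens had list medians of 0.1 for Pb+Mn, -0.13 for Pb and -0.16 for Mn in males, with 3 lower and 0 higher at an unadjusted p under 0.05 in male Pb, beside the same 4.23% and 8.28% of the genes tested. In female Pb+Mn animals Col6a3, a chain of the microfibrillar type VI collagen, averaged 3.55 ± 0.937 CPM, against 2.19 ± 0.699 CPM in female controls (log2 fold change 0.74 ± 0.24, edgeR adjusted p = 1.0). Of the 8 other proteoglycans 2 were higher in male Pb at the unadjusted mark that 8.28% of the genes tested reached in that direction, Podn with a log2 fold change of 0.78 ± 0.3 and Aspn with 0.53 ± 0.23. Of the 16 retinoid genes 11 were positive in male Pb. At the unadjusted mark 1 was higher and 1 lower, beside 8.28% and 4.23% of the genes tested. The higher was Rxrg, a retinoid X receptor, with a log2 fold change of 0.83 ± 0.31 (edgeR adjusted p = 0.34). The lower was Cyp26b1, an enzyme that breaks down retinoic acid, with -0.55 ± 0.25 (edgeR adjusted p = 0.37). Their r with the shared level was -0.23 and -0.11. The list medians of collagen processing, retinoid, TGF-beta and insulin-like growth factor genes lay between -0.14 and 0.1 in the 6 comparisons with control.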

How the data were processed

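The kit was Illumina Stranded mRNA, read as paired ends of 100 bases, per the labels' protocols. The deposited values are whole-number counts per gene without normalization, as the authors left them. The submitters' processing notes name STAR 2.7.10b and featureCounts 2.0.6, with trimming by Trim Galore 0.6.9, then edgeR and limma under R 4.4.2, and the build GRCm39. Strand and multi-mapping settings are not given in the sources used here. Symbols, exon lengths and overlaps came from GENCODE M21 by identifier (51884 of 57126 matched, with 99.52% of counts); its build differs, so its coordinates are not printed.

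All 48 libraries were fitted together in edgeR 4.0.16 under R 4.3.3 (TMM scaling, filterByExpr, glmQLFit, glmQLFTest, two-sided) with 1 term per group. P-values were adjusted by Benjamini-Hochberg over 16360 genes in each of 16 comparisons at a threshold of 0.05. Shares of the genes tested at an unadjusted p come from this main fit. None are given here for counts under other settings or with a library left out. SEs are the log2 fold change over the root of F and are approximate. Log2 CPM used a prior count of 2. Genes compared with the shared level had a mean log2 CPM of at least 0. Litters are not stated, and the metals were given to the dams. The tests took every animal as independent. If animals of a group were littermates, the group held fewer independent units than animals, and the p-values could be too small. The 2 most alike libraries of 1 group differed by a chi-square of 8.9 per degree of freedom, where sampling noise alone gives about 1, so each library counted as 1 sample. The test was checked on simulated data. Alternatives included DESeq2 1.42.0, limma 3.58.1, other scalings and filters, a replicate block, and each library left out in turn.

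The 10 genes, the other lists and the tests were chosen with earlier results of these data known. The text names all 10 genes, of other lists some of the up to 4 genes of smallest unadjusted p against control and the 2 of highest r with the shared level, and over all genes those among the 10 of highest r, unnamed gene models left out. Some genes that this rule names are not reported here.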

Additional observations from a re-analysis of the deposited data

Results flagged for a closer look

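In 5 of 80 combinations of a gene and a group, 1 animal stood apart from the other 5 of its group, with a gap of over 0.625 of the group's whole range. Chance flags about 1 in 20 such combinations, or 4 of 80, so the number itself is close to what chance gives. Igf2 made up 4 of the 5. It was 12.3 CPM in female Pb+Mn 1, where the others had 2.5 to 3.65 CPM, and 4.61 CPM in female Mn 2, where the others had 1.09 to 2.24 CPM. It was 7.03 CPM in female control 5, where the others had 1.12 to 2.38 CPM, and 10 CPM in male control 3, where the others had 0.66 to 3.62 CPM. In each of these 4 groups the same animal had the highest summed choroid plexus markers, at 4760, 1980, 2380 and 4810 CPM in that order. Slc22a6 was 1.05 CPM in female Mn 3, below the 2.93 to 3.94 CPM of the others, and that animal had the lowest shared level of its group (-1.1).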

How the results depend on the processing

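Over all settings run, 0 of the 10 genes were called at an adjusted p of 0.05 in any fit and comparison. The 412 combinations checked also hold the main fit read at a threshold of 0.10. There 1 of the 10 passed, in male Pb+Mn against Pb. Of 2382 fold changes of the 10 genes under other settings, 49 changed sign. In male Pb against control, Dcn was -0.04 with voom library weights, -0.01 with the replicate block and -0.1 with the transcript length slope, an alternative chosen after seeing the data, and -0.11 to 0.12 with 1 animal left out. There Igf2 was -0.26 to 0.98, and 0 to 1 genes of all tested passed (1 without male Pb 2). In male Pb+Mn against Pb, Dcn was 0.02 with voom, 0.01 with library weights, 0.01 with the block and 0.14 with the slope, and -0.13 to 0.1 with 1 left out. Igf2 there was -0.16 with the slope and -0.04 to 0.67. Genes passing in that comparison were 326 in DESeq2, 471 with library weights, 893 at a threshold of 0.10 (with 1 of the 10, Aldh1a2), and 0 to 1545 with 1 left out (1479 without male Pb 2, 1545 without male Pb 5). The cause was not tested. Lum was -0.05 in female Mn and 0.06 in female Pb+Mn against Mn with library weights, and 0.1 in male Pb+Mn against Mn with voom and with weights. With 1 animal left out Lum was -0.13 to 0.2, -0.17 to 0.07 and -0.22 to 0.12 in these, and -0.02 to 0.31 in the female interaction. Likewise Ogn was -0.5 to 0.08 in male Mn and -0.1 to 0.37 in male Pb+Mn against Mn, Dcn -0.26 to 0.0 in female Mn and -0.01 to 0.34 in the male interaction, and Igf2 -0.75 to 0.03 in female Mn and -0.37 to 0.16 in female Pb. Between female and male controls 4 genes passed when only those groups were fitted, against 7.

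In 0 of 28 pairs of groups did all same-numbered libraries deviate together, each at an r over 0.1 (r from -0.38 to 0.49). This rule asks it of every same-numbered pair, so it cannot exclude pairing of some animals by litter or batch. Between males and females of the same exposure the mean r was 0.14 in controls, 0.09 in Pb, 0.25 in Mn and 0.21 in Pb+Mn. For other pairs of groups it went from -0.13 (male Mn with female Pb+Mn) to 0.24 (male Mn with female Pb). With the replicate block 0 of the 10 genes were called, and 4 of them had an unadjusted p under 0.05 in male Pb, 5 in male Pb+Mn against Pb, 6 in the male interaction and 0 in female Pb+Mn against Pb. Depth limits Igf2 most, with as few as 4 counts in a library. In male Mn against control the median SE of a fold change over all genes was 0.16. The SEs of the 10 genes there were larger, from 0.26 (Dcn) to 0.56 (Igf2).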
